A study of Mus musculus with 55 samples.

Results

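State N is 1 of 24 chromatin states, lettered A to X, into which the autosomes of mouse pancreatic islets were divided, and the study names it Polycomb repressed. Its members are the segments of the deposited list that carry the letter N. They number 59817 of 1653154 segments and cover 230453400 of 2460433600 segmented bp, or 9.37%. The list gives a letter for each segment and no level of any histone mark, so the name could not be checked against H3K27me3 here. Of the 28881 annotated genes with a state at their start site, 2501 (8.66%) started in state N.

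Polycomb repressive complex 2 (PRC2) places methyl groups on lysine 27 of histone H3, and the trimethylated form, H3K27me3, marks silent genes, many of them developmental regulators. Eed is the subunit that binds this mark and is needed for the activity of the catalytic subunits Ezh2 and Ezh1. Start sites that carry H3K27me3 together with the activating mark H3K4me3 are called bivalent, and the study gives that name to states K, L and M. States A and B are active start sites, O and P are further Polycomb states, and Q and R mix weak Polycomb and H3K9 methylation.

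The segmentation came from islets of wild-type mice. Bulk RNA-seq was available for islets of male mice in 6 groups: wild type, heterozygous for Eed and homozygous for the floxed Eed allele (βEedKO), each at 8 and at 25 weeks of age, on C57B6/J. Cre was driven by the rat insulin promoter (RIP-Cre), so that the deletion was aimed at β cells and the other cells of the islet kept Eed. Whether wild-type controls carried Cre is not given in the sources used here. There were 3 libraries of each genotype at 8 weeks, and at 25 weeks 3 of wild type, 2 of heterozygous and 2 of βEedKO islets, the last each pooled from several animals.

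Sequences upstream of a few start sites are shown so that starts in state N can be read beside starts of the same gene in another state. Each line gives the 250 bases before an annotated transcript start, read 5′ to 3′ on the strand of the gene from GRCm38, outside all exons of the annotation. Capitals mark CG dinucleotides and, where present, TATAAA, the core of a TATA box. Igf2, Cnpy1, Tph1, Prss28 and Tgm3 were called higher in βEedKO islets, and Prss2, which encodes a trypsinogen, had very high counts in every library. For Cnpy1 and Tph1 a second start of the same gene, in state M or K, is shown under the one in state N.
Igf2, N start, chr7:142666817-142667066, minus strand: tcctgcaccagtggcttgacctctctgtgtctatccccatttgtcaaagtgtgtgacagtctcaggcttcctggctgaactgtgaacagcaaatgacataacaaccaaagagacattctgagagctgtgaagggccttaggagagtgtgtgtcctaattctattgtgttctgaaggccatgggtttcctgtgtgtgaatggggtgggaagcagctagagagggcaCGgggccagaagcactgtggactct
Cnpy1, N start, chr5:28245807-28246056, minus strand: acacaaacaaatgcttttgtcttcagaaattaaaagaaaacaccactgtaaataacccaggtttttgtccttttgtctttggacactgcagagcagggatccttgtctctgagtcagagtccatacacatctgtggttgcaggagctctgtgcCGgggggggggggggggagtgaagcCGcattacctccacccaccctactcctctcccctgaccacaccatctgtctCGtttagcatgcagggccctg
Cnpy1, M start, chr5:28210169-28210418, minus strand: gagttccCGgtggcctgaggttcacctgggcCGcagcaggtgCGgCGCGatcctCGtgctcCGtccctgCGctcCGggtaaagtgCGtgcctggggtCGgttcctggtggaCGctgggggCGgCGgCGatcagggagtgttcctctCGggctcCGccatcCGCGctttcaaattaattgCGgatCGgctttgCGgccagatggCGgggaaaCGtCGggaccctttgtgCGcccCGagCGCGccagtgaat
Tph1, N start, chr7:46672538-46672787, minus strand: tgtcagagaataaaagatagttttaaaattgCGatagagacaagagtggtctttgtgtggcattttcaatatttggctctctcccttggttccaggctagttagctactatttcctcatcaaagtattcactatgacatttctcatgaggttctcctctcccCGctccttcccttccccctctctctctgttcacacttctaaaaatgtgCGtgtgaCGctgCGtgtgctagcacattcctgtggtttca
Tph1, K start, chr7:46667378-46667627, minus strand: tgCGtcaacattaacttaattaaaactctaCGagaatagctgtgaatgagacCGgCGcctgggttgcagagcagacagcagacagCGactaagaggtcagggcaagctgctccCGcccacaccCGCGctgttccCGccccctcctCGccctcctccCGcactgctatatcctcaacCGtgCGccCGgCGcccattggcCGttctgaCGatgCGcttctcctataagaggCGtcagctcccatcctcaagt
Prss28, N start, chr17:25308396-25308645, plus strand: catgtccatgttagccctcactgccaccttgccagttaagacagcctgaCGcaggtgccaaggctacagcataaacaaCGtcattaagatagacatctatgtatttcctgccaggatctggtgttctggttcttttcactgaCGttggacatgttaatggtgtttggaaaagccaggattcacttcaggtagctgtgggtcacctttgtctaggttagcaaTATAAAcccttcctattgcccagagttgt
Tgm3, N start, chr2:130012099-130012348, plus strand: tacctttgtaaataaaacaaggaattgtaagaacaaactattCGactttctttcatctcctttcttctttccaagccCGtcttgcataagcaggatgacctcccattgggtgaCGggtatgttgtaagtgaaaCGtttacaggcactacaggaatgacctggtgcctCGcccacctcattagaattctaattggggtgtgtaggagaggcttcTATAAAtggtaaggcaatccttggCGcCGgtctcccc
Prss2, N start, chr6:41521537-41521786, plus strand: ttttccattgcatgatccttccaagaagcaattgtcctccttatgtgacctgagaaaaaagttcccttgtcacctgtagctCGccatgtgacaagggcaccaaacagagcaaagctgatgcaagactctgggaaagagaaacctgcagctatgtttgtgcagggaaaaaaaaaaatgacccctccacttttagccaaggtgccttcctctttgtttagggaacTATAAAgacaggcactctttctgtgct
The N starts shown, each the outermost of its gene, had 1, 3, 5, 3, 7 and 1 CG for Igf2, Cnpy1, Tph1, Prss28, Tgm3 and Prss2. The M start shown for Cnpy1 had 29 and the K start shown for Tph1 had 19. Not every start differed in this way. Igf2 had further N starts with 7 and 6 CG, beside starts in L and M with 31 and 8. Dpp6 had 8 CG before its N start and 8, 6 and 15 before starts in L, M and L. Zfp57 had 6 before its N start, 20 before a start in L and 3 before a start in M. Over all starts in state K the median was 4 CG. TATAAA began 29 bases before the start of Prss28, 37 before that of Tgm3 and 27 before that of Prss2.

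State N segments were long. Their median width was 2600 bp (quartiles 1200 and 5000 bp), against 800 bp for all segments (quartiles 400 and 1600 bp). The medians were 400 bp in state L, 1200 bp in M, 1600 bp in O and 1200 bp in P. The bins of the segmentation were 200 bp wide, and 5.13% of state N segments were a single bin. At the other end 4348 segments (7.27%) reached 10000 bp and held 28.5% of the bases in state N. The widest, of 64400 bp, lay at chr11:82058201-82122600 and held the start sites of the chemokine genes Ccl12 and Ccl8.

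State N bordered mainly on other repressed states. Of its 119372 flanks 25.7% were state O and 16.8% state M, which made up 5.25% and 0.413% of the flanks of all other states. State R followed with 15.7%, P with 14.2% and Q with 9.11%. Seen from the other side, 61.3% of the flanks of state M were state N. No state N segment touched state L or B, and 3 touched state A. Of all state N segments 28.5% had state M on at least 1 side and 42.5% had state O. The median distance to the nearest L or M segment was 12600 bp for state N, 22800 bp for O and 112000 bp for P. These are counts from a single segmentation in which replicates were averaged, so they carry no spread between animals.

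**Figure D1:**
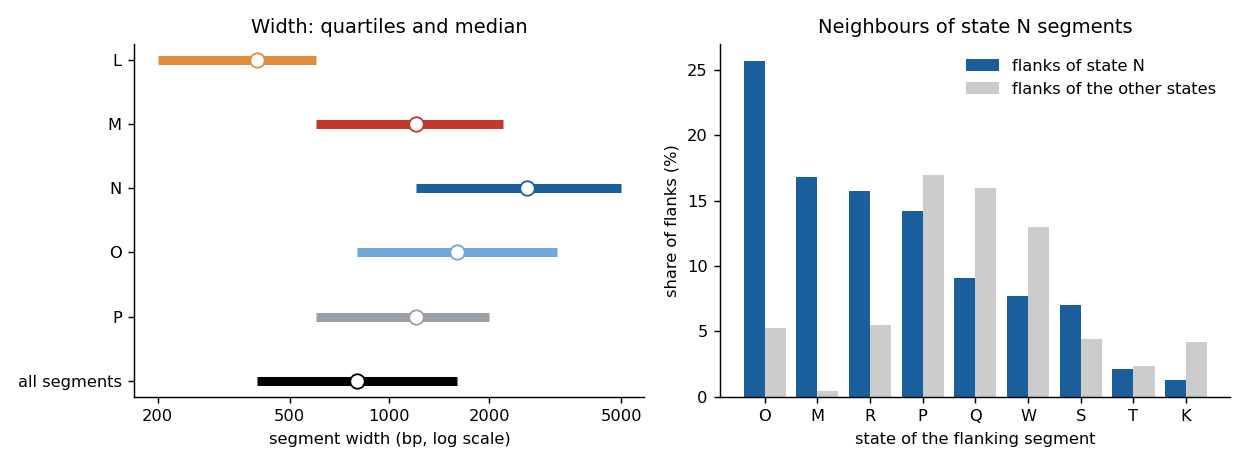
Left, quartiles (bars) and median (circles) of segment width in bp, on a log scale, for states L to P and for all segments. Right, share of the flanks of state N held by each neighbouring state in percent (blue), beside the share of that state among the flanks of all other states (grey). State N had the largest median of those drawn, 2600 bp, and states O and M made up a larger share of its flanks than of the flanks of other states.

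When touching segments of states K to P were joined into domains, 44272 domains held state N. Their median width was 6000 bp, against 1200 bp for domains without it, and state N made up a median of 68.5% of their length. In 12013 of them (27.1%) there was no other state, and 8936 (20.2%) also held state M. The domain of 144200 bp at chr5:28116001-28260200 joined the homeobox gene En2 and Cnpy1. A domain of 148000 bp on chromosome 11 was 91.4% state N and held 1 gene start, that of the chemokine gene Ccl1. The share of a chromosome in state N ranged from 6.84% on chromosome 10 to 14.0% on chromosome 11.

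State N was not rich in CpG. Its segments had 44.1% GC and 9.08 CpG per kb, with an observed to expected CpG ratio of 0.187. The segmented genome as a whole had 41.9% GC, 8.50 CpG per kb and a ratio of 0.193. The ratio was 0.307 in state M, 0.521 in L and 0.851 in A. Soft-masked repeats made up 24.1% of the bases of state N and 33.5% of all segmented bases. The 250 bases before a start in state N held a median of 3 CG, against 19 in state A, 11 in L, 7 in M and 3 in O. No CG at all was found in 12.4% of them, against 8.04% of all starts. TATAAA on the strand of the gene was found before 275 of the 2501 starts in state N (11.0%), against 7.68% of all starts, 3.14% of those in state A, 6.10% in M and 20.6% in T. On either strand the shares were 16.2% and 11.9% for state N and all starts. A match is a description of the letters and not a tested site.

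The segments with a gene start were few: 2323 of the 59817 (3.88%) held the 2501 starts. State N also held large parts of the surroundings of bivalent starts. At 3 kb upstream of the start, 48.8% of the genes starting in state N were in state N, and so were 41.8% of those starting in M, 26.3% of those starting in L, 10.9% of those starting in O and 4.73% of those starting in A. At 50 kb downstream the shares were 27.2%, 24.6%, 13.01%, 14.1% and 6.20%. State N was the largest state over the gene body for 3456 genes. Only 50.4% of these started in it, while 14.4% started in M and 11.95% in L.

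**Figure D2:**
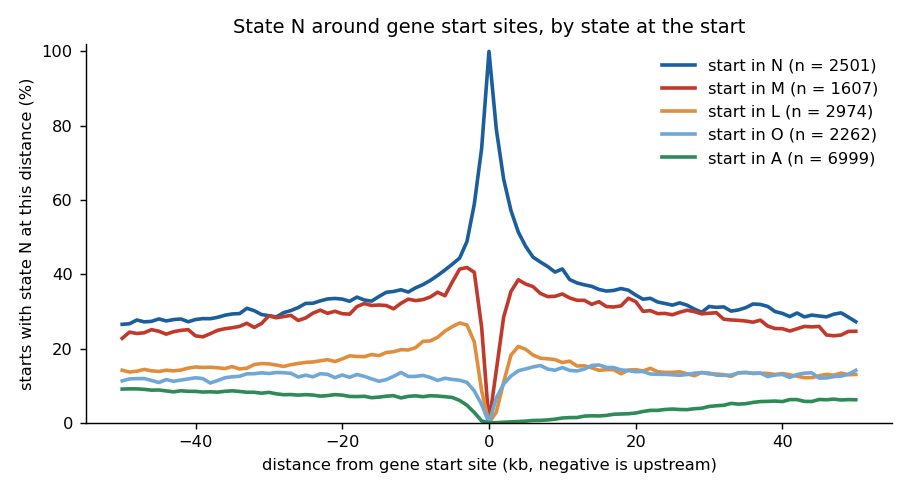
Share of gene start sites, in percent, with state N at each distance from the start in kb (negative is upstream), for genes starting in states N, M, L, O and A. The line for genes starting in N is at 100% at the start by construction. The line for genes starting in M is low at the start, at 25.7% against 73.9% for N at 1 kb upstream, and comes closer with distance, at 41.8% against 48.8% at 3 kb upstream.

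The genes that started in state N were mostly not the classical Polycomb regulators. None of the 39 counted Hox genes started there, and all 39 started in L or M. Of 139 other homeobox genes 8 started in state N and 108 in L or M. Of 204 other developmental transcription factors 12 started in state N and 124 in L or M. Families with a larger part in state N were keratins, claudins and other epithelial barrier genes (55 of 174, 31.6%), serine proteases and their inhibitors (51 of 185, 27.6%), immune genes such as chemokines and surface receptors (122 of 501, 24.4%) and cytochrome P450 genes (16 of 93, 17.2%). Olfactory, vomeronasal and taste receptor genes gave 196 of 1433 (13.7%). None of 7 cell cycle inhibitor genes started in state N.

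Of the 2501 genes 2080 were counted in the RNA-seq, of which 1503 are protein coding, 402 lincRNA and 175 antisense. Of the counted genes 727 had no read in any of the 16 libraries. The expression filter, which asks for about 0.578 CPM (counts scaled to library size) in enough libraries, let 481 (23.1%) be tested, and 1599 were not. Counts are of whole islets, so fewer cells of a type and less RNA per cell cannot be told apart.

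Libraries held between 4645393 and 22925359 counted reads. Eed itself was lower in βEedKO than in wild-type islets, with 13.6 to 15.1 against 23.2 to 33.8 CPM at 8 weeks and 13.7 to 15.3 against 19.3 to 28.6 CPM at 25 weeks. The libraries did not overlap, but the adjusted p was 0.0881 and 0.142 (edgeR). Islet hormone genes summed to 26604 to 30410 CPM in βEedKO and 119691 to 201486 CPM in wild type at 25 weeks (1 of 5 called lower, Ins1). Ins1 and Ins2 had means of 2490 and 10356 CPM in βEedKO against 35994 and 110858 CPM in wild type (Ins2 adjusted p = 0.0626, edgeR). The mean of Sst was 1199 against 1479 CPM, whereas Gcg had 11290 against 8312 and Ppy 3172 against 1585 CPM, none of them called. Of the other marker lists, duct genes summed to 443 to 617 against 78.8 to 158 CPM (3 of 6 called higher: Krt19, Spp1 and Sox9) and mesenchymal genes to 215 to 312 against 67.5 to 104 CPM (4 of 7 called higher). Leukocyte genes summed to 105 to 348 against 79.7 to 143 CPM (Ptprc called higher and Cd79a lower, of 7). Acinar genes varied most, with 9805 and 322697 CPM in the βEedKO libraries and 25000 to 178933 CPM in wild type (0 of 7 called). No defining marker was at 0 in a whole group. Wild-type replicates 3 and 4 and βEedKO replicates 4 and 5 at 8 weeks stood apart, with interferon-induced genes at 2049 to 3348 CPM. Replicates 1 of those groups had 46.5 and 36.0 CPM. Heterozygous libraries of 8 weeks had 25.6 to 33.4 CPM, and all libraries of 25 weeks had 32.9 to 77.5 CPM.

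The number of state N genes detected was highest in the βEedKO libraries of 25 weeks. At 1 CPM or more there were 333 and 341 of the 2080 counted genes in the βEedKO libraries at 25 weeks, against 177 to 255 in wild type. At 8 weeks there were 206 to 262 against 158 to 235. Libraries differ in depth, so each was also thinned to 4645393 reads. State N genes with a read then numbered 614 and 727 in βEedKO and 436 to 462 in wild type at 25 weeks, with means of 670 ± 79.9 (SD, n = 2) and 453 ± 14.5 (SD, n = 3), or 48.1% more. The groups did not overlap, and the exact permutation test (two-sided) gave p = 0.2, the smallest that 2 against 3 libraries allow. Over all genes the thinned number was 12.1% higher. At 8 weeks βEedKO libraries had 466 to 549 and wild-type libraries 398 to 476 genes, which overlapped (18.9% more, exact permutation p = 0.2, where 0.1 is the smallest possible).

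**Figure D3:**
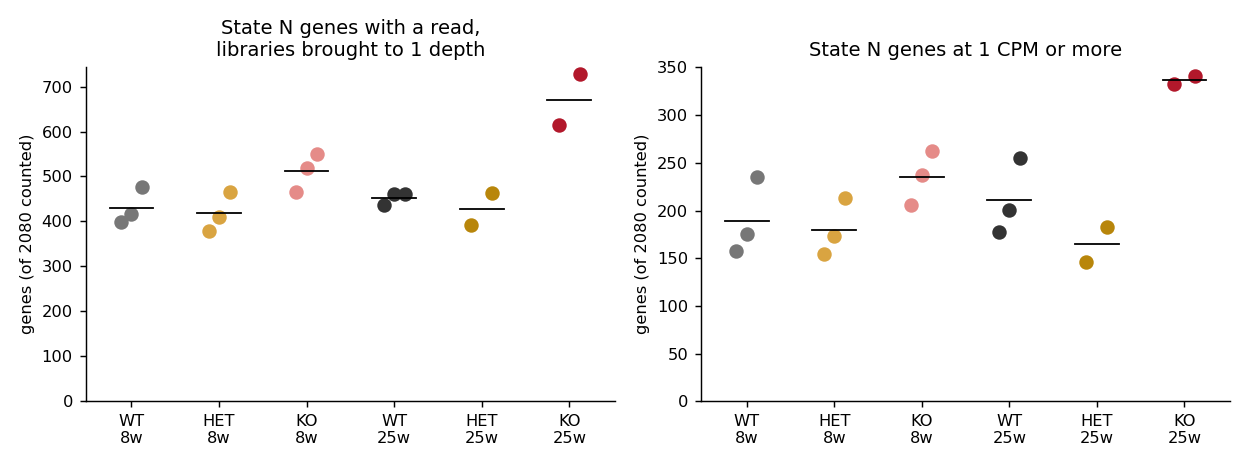
Number of counted state N genes in each library, by group of genotype (WT wild type, HET heterozygous, KO βEedKO) and age, as points in order of value with the group mean as a line. Left, genes with a read after thinning all libraries to the same depth; right, genes at 1 CPM or more. At 25 weeks both βEedKO libraries are above all wild-type and heterozygous libraries.

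The reads of state N genes came mostly from a few genes of the exocrine pancreas. Prss2, Cpa1, Pnliprp1, Dmbt1, Gp2 and Pnliprp2, which encode digestive enzymes and other secreted or granule proteins of acinar and duct cells, held 51.0% to 97.1% of them, a group of 6 picked after their values were seen. These genes split the βEedKO libraries. Cpa1, a carboxypeptidase, had 39830 and 1172 CPM in βEedKO at 25 weeks and 10770, 3681 and 26363 CPM in wild type (log2 fold change 0.59 ± 1.23 SE, adjusted p = 0.847, edgeR). The first βEedKO library was thus above and the second below all wild-type libraries, and without the first the log2 fold change was -3.54. With the 6 genes left out, reads of state N genes summed to 3567 and 4071 CPM in βEedKO and 2290 to 2976 in wild type at 25 weeks. Heterozygous replicate 2 at 8 weeks also stood apart, with 1794 CPM of Pck1, 1779 of Fabp4, 281 of Adipoq and 644 of Myh4, genes of fat and muscle that start in state N and had at most 86.5, 142, 19.3 and 31.2 CPM elsewhere.

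The bulk data were used to ask which state N genes differ between βEedKO and wild-type islets. The paper reports that the older βEedKO mice had overt diabetes, whereas the younger ones were glucose tolerant. Whether differences at 25 weeks came directly from loss of Eed, from diabetes or from a changed mix of cells was not tested. At 25 weeks 36 state N genes rose in βEedKO islets and 0 fell, among 481 tested and 2080 counted. That is 7.48% of the tested and 1.73% of the counted genes, where 4.58% of all 18685 tested genes were called higher and 2.02% lower. Over the 25643 counted genes with a start state the share called higher was 3.14%, so that state N was above the background per tested gene and below it per counted gene. In the same fit 225 of 1496 counted genes starting in state M rose (15.0%), 354 of 2863 in state L (12.4%), 20 of 702 in K (2.85%), 12 of 1816 in O (0.661%) and 8 of 1253 in P (0.638%). Per tested gene the shares were 26.5% in M, 14.8% in L, 5.52% in K, 1.96% in O and 4.91% in P. The order of N and K thus depended on the denominator. Of the counted genes 56.7% were tested in M, 83.6% in L and 51.6% in K. The median log2 fold change of the tested state N genes was 1.39 (quartiles 0.45 and 2.56), and 408 of 481 were positive, against a median of 0.03 and 51.7% positive over all tested genes. Part of this lean follows from the filter, since a gene silent in wild type can be tested only through the other groups. Of the 259 state N genes that reached the filter level in at least 2 wild-type libraries at 25 weeks, 16 rose (6.18%, median 0.88) against 3.28% of the 13903 such genes with any start state (median -0.06). Of the other 222, 20 rose (9.01%), against 16.3% of 2147 such genes of any start state.

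Among the tested state N genes 123 had an unadjusted p under 0.05, of which 115 were higher. DESeq2, fitted without the filter on low counts to 30748 genes, called 56 state N genes higher and 1 lower. The calls of edgeR rested on few libraries. With the replicate number as a block, which treats same-numbered wild-type and βEedKO libraries as pairs, 19 state N genes rose. Without βEedKO replicate 2 or 3 the number was 16 or 12, without wild-type replicate 3 or 4 of that age 16 or 17, and without both replicates 1 of 8 weeks 73.

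The 36 genes had a median log2 fold change of 3.66 (1.02 to 10.87), and in each the βEedKO libraries at 25 weeks were above all wild-type and heterozygous libraries of that age. The same βEedKO and wild-type libraries gave the calls, so standing apart from wild type follows largely from the selection. The matching share over all genes called higher is not given here. In 23 of the 36 the wild-type mean was below 1 CPM, and 4 had no read in the wild-type libraries. All but 1 are protein coding. At 8 weeks 32 of the 36 had a positive log2 fold change and 18 an unadjusted p under 0.05, against 336 and 70 of the 481 tested state N genes. Another gene overlaps 16 of them, among these Slc30a3, Ttc6, Igf2 and Dpp6, and since the use of strand in counting is not stated, their reads and those of the overlapping gene cannot be told apart. The calls of 11 of the 36 held under each of 20 other settings, which changed the scaling, filter, test, control, block or libraries. These were Cnpy1, Dpp6, Igf2, Ndn, Pcdhb4, Pik3cd, Prss23, Sh3gl3, Stra6l, Tgm3 and Zfp57, and every one of the 36 kept its direction in all 20. The settings reuse the libraries that gave the calls.

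Among enzymes and secreted or barrier proteins, Prss28 (ENSMUSG00000024171.5, chr17:25308646-25311876), a serine protease known from the uterus, had 15.9 and 13.7 CPM in βEedKO at 25 weeks and 0 reads in wild type at both ages and in βEedKO at 8 weeks. Set against a floor of 3 reads for wild type at 25 weeks, this is at least 147-fold higher (adjusted p = 0.00793 in edgeR; the highest over the other settings was 0.0629, and the call was lost without either βEedKO library). Tgm3 (ENSMUSG00000027401.9, chr2:130012349-130050399), the transglutaminase that cross-links the epidermal envelope, had 10.0 and 14.9 CPM in βEedKO and 0, 0.152 and 0.155 CPM in wild type at 25 weeks (log2 fold change 6.55 ± 0.72 SE, adjusted p = 0.000845). At 8 weeks it had 0.514, 0.914 and 0.265 CPM in βEedKO and 0.123, 0.238 and 0.162 CPM in wild type (adjusted p = 0.462, edgeR). The groups did not overlap there, but these levels are 2 to 18 reads, and the lowest βEedKO library had 3. Krt90, a type II keratin, had 8.16 and 12.4 CPM against 0, 0.838 and 0.621 CPM (4.20 ± 0.97, adjusted p = 0.0298, highest 0.141). Tgm3 and Krt90 were the 2 called among 8 tested genes of the keratin and claudin list, of which 7 were positive, beside the duct sum of 443 to 617 against 78.8 to 158 CPM, whose part in this result was not tested. Prss28 and Prss23 were the 2 called among 15 tested serine proteases and inhibitors, of which 13 were positive. Of all tested state N genes 84.8% were positive.

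Among genes of neurons and endocrine cells, Tph1 (ENSMUSG00000040046.14, chr7:46644641-46672537), the rate-limiting enzyme of serotonin synthesis outside the brain, had 6.73 and 23.9 CPM in βEedKO at 25 weeks and 1 read over the 3 wild-type libraries. Both βEedKO libraries of 25 weeks were above every other library, and the call was lost with the block (adjusted p = 0.00471, with the block 0.0695). At 8 weeks Tph1 had 0.140 to 1.68 CPM in βEedKO and 0.297 to 1.42 CPM in wild type, which overlapped. Slc30a3 (ENSMUSG00000029151.14, chr5:31086106-31108237), the zinc transporter of synaptic vesicles, had 3.52 and 6.73 CPM at 25 weeks and 0.327, 1.63 and 1.68 CPM at 8 weeks in βEedKO, and no read in any of the 6 wild-type libraries. At 25 weeks this is at least 57.4-fold higher against the 3-read floor (adjusted p = 0.0153, highest 0.0847, with the block 0.0597; the call was also lost when βEedKO replicate 3 or wild-type replicate 3 of that age was left out). Neurod4 (ENSMUSG00000048015.4, chr10:130268152-130280240), a bHLH transcription factor of neuronal differentiation, had 1.20 and 3.87 CPM and no read in wild type at 25 weeks (at least 30.1-fold higher, adjusted p = 0.0325, with the block 0.0680, highest 0.187). It was the 1 call among the 5 tested of the 12 developmental transcription factors in state N.

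Cnpy1 (ENSMUSG00000044681.19, chr5:28200819-28245806), a regulator of fibroblast growth factor signalling, had 17.8 and 15.1 CPM in βEedKO at 25 weeks and 1 read over the 3 wild-type libraries. The ratio of the groups was 489, with a 95% counting interval of 87.5 to 19346 (adjusted p = 0.00187). Its outermost start, shown above, lay in a state N segment of 45200 bp, and another start lay in state M. Stra6l (ENSMUSG00000028327.14, chr4:45848664-45887008), a receptor for retinol-binding protein, had 18.6 and 13.5 CPM against 0.660, 0.305 and 1.32 CPM (4.36 ± 0.77, adjusted p = 0.0082). At 8 weeks its groups overlapped, with 0.794 to 1.45 CPM in βEedKO and 0.594 to 2.84 CPM in wild type. Zfp57 (ENSMUSG00000036036.15, chr17:37001163-37010635), a zinc finger protein that protects imprinted DNA methylation, had 6.29 and 8.97 CPM against 0.220, 0.457 and 0.311 CPM at 25 weeks (4.43 ± 0.69, adjusted p = 0.00451). At 8 weeks it had 2.61, 7.21 and 8.56 against 0.617, 2.08 and 0.921 CPM, where the groups again did not overlap but the adjusted p was 0.16. Akap3, an anchoring protein of sperm, and Ttc6, a tetratricopeptide repeat gene beside Foxa1, had 3.52 and 5.72 CPM and 4.71 and 5.68 CPM in βEedKO, against at most 0.220 and 0.660 CPM in wild type. Their calls were lost in 7 and 5 of the 20 settings (adjusted p = 0.0331 and 0.0278, with the block 0.0995 and 0.129, highest 0.184 and 0.134).

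The cadherin list held the most calls, 6 of 12 tested genes, and all 12 were positive, where 84.8% of all tested state N genes were positive. The 6 called were Cdh23, which links the stereocilia of hair cells, and 5 β-protocadherins, neuronal adhesion genes that lie in a cluster on chromosome 18. Of the 22 counted Pcdhb genes 8 started in state N. Their summed level was 30.8 and 34.7 CPM in βEedKO at 25 weeks and 4.18 to 9.68 CPM in wild type. At 8 weeks it was 9.98 to 14.0 against 6.17 to 8.49 CPM. The groups did not overlap at either age. At 25 weeks this follows largely from the selection, since 5 of the 8 were called from these libraries. The share of all genes with groups apart at 8 weeks is not given here. Pcdhb4 had 7.03 and 5.96 CPM against 0.660, 0.381 and 0.466 CPM (3.73 ± 0.55, adjusted p = 0.00359), and Pcdhb10 had 1.80 and 2.17 CPM against at most 0.0777 CPM (4.81 ± 1.22, adjusted p = 0.0423, with the block 0.0708, lost in 9 of the 20 settings). These genes are related copies of a multigene family and overlap longer annotated transcripts, so how reads were shared among them is uncertain.

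**Figure D4:**
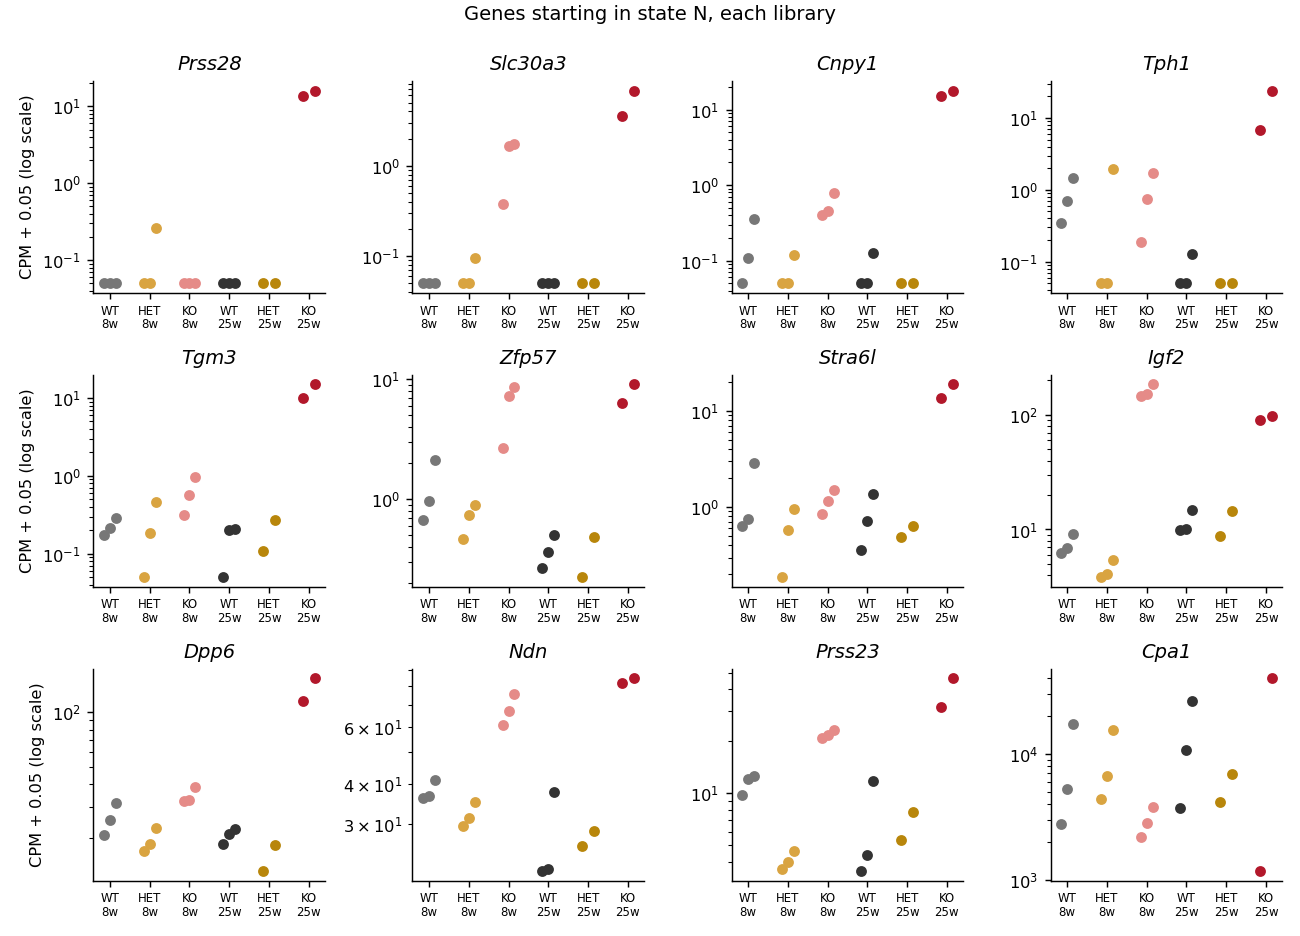
CPM of genes starting in state N in each library (points, in order of value within a group), on a log axis after adding 0.05, by group of genotype (WT wild type, HET heterozygous, KO βEedKO) and age. In the βEedKO group at 25 weeks both points lie above all wild-type points of that age for the 11 called genes drawn, while for the exocrine gene Cpa1 they lie at 39830 and 1172 CPM.

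Few genes of the other families passed the test. Of all tested state N genes 84.8% were positive at 25 weeks. Of the 481, 222 did not reach the filter level in at least 2 wild-type libraries of that age. Counts of positive genes in a family share this lean and are not a result about the family. Of 67 tested immune genes 65 were positive at 25 weeks with a median log2 fold change of 1.81, but only Ly6c2, a monocyte surface protein, was called. It had 5.39 and 2.67 CPM against 0.660, 0.457 and 0.777 CPM (adjusted p = 0.028, with the block 0.0879, highest 0.229), beside the leukocyte sum of 105 to 348 against 79.7 to 143 CPM, whose part in this result was not tested. None of 12 collagen and matrix genes passed although 11 were positive, beside the mesenchymal sum of 215 to 312 against 67.5 to 104 CPM, whose part was not tested. None passed among 9 ion channels (9 positive), 5 cytochrome P450 genes (5 positive), 4 neurotransmitter receptors (3 positive) and 3 olfactory receptors (2 positive). Of 12 solute carriers 9 were positive and Slc30a3 was called. Mgp, an inhibitor of matrix calcification named here after its values were seen, had 42.1 and 32.9 against 20.5, 12.5 and 12.97 CPM (1.30 ± 0.30, adjusted p = 0.0285, with the block 0.0627, highest 0.187).

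The share called varied with where the other transcript starts of a gene lay. Of the 1854 counted genes with no transcript start outside state N, 20 rose at 25 weeks (1.08%, 369 tested). Of the 70 with another start in L or M, 10 rose (14.3%, 51 tested), and of the 29 with another start in A or B, 3 rose (10.3%, 28 tested). Counts are per gene, so the start from which the reads came cannot be told apart. Genes whose body was mostly state N varied in the same way with their start. Of 1460 such genes that also started in N, 22 rose (1.51%), against 57 of 454 that started in M (12.6%), 79 of 398 that started in L (19.8%) and 2 of 233 that started in O. Per tested gene these shares were 8.21%, 24.8%, 26.1% and 2.53%. A gene in state L or M within 50000 bp was called higher beside 6 of the 36 risen genes (16.7%) and beside 23 of the 445 tested and not called (5.17%). Of the 6, Pcdhb3, Pcdhb4 and Pcdhb7 share the neighbours Pcdhb2 and Pcdhb6 in a single cluster, Igf2 overlaps its neighbour Igf2os, and the others are Ttc6 beside Foxa1 and Ndn beside Magel2. These shares are descriptions, without a test.

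By base composition, 16 of 493 counted genes with an observed to expected CpG ratio from 0.3 to 0.6 around the start rose (3.25%), 0 of 37 with a higher ratio (8 tested), 13 of 807 from 0.15 to 0.3 (1.61%) and 7 of 743 at or below 0.15 (0.942%). Per tested gene these shares were 12.3%, 0%, 6.13% and 5.34%. By distance, 4 of 108 genes within 500 bp of an L or M segment rose (3.70%, or 11.1% of the 36 tested) and 5 of 505 beyond 50000 bp (0.990%, or 6.17% of the 81 tested). By width of the segment, 2 of 83 genes rose in segments of up to 1000 bp (2.41% of the counted and 6.45% of the 31 tested) and 9 of 541 in segments over 10000 bp (1.66% of the counted and 10.7% of the 84 tested), so that the order depended on the denominator. Before the 36 start sites TATAAA was found 5 times (13.9%), and the median number of CG was 4 (0 to 13).

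**Figure D5:**
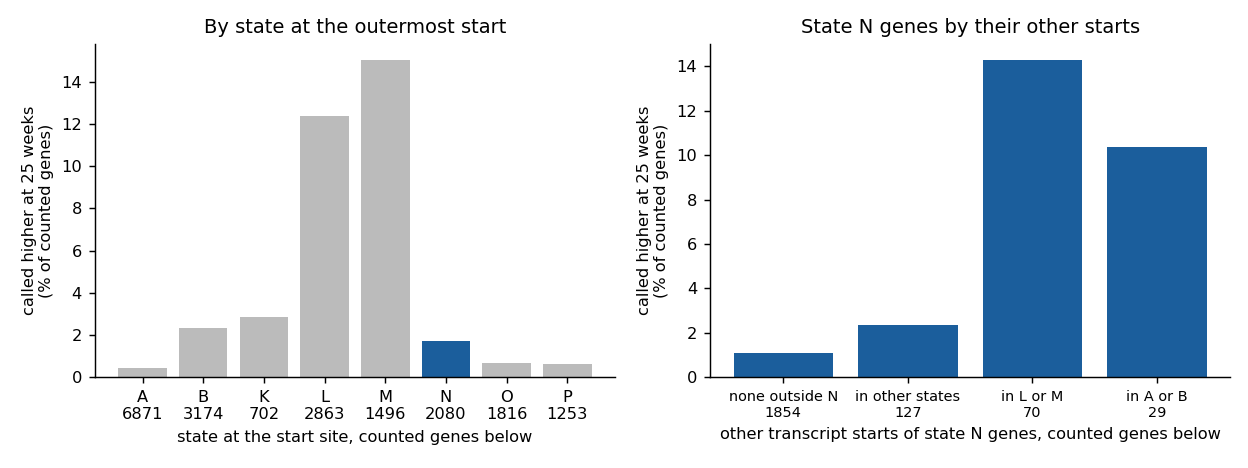
Share of counted genes called higher in βEedKO islets at 25 weeks, in percent, by the state at the outermost start site (left) and, for state N genes, by where their other transcript starts lay (right). The number of counted genes stands under each bar. State N is at 1.73%, M at 15.0% and L at 12.4%, and state N genes with another start in L or M are at 14.3%. Per tested gene, not drawn, these shares are 7.48%, 26.5%, 14.8% and 19.6%.

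At 8 weeks Igf2 was the 1 state N gene that rose, and 0 fell, where 0.428% of all tested genes were called higher and 0.00535% lower. The median log2 fold change of the tested state N genes was 0.53, against 0.00 over all genes, and 69 of the 70 with an unadjusted p under 0.05 were higher. Igf2 (ENSMUSG00000048583.16, chr7:142650766-142666816) encodes insulin-like growth factor 2, an imprinted growth factor of the fetus. It had 185, 145 and 154 CPM in βEedKO and 9.14, 6.83 and 6.17 CPM in wild type at 8 weeks, and 90.3 and 98.0 against 14.7, 9.98 and 9.79 CPM at 25 weeks. All βEedKO libraries were above all wild-type libraries, and no heterozygous library, with 3.79 to 14.5 CPM, was above all wild-type libraries of its age. The log2 fold change was 4.45 ± 0.26 at 8 weeks (adjusted p = 8.59e-05, with the block 0.0534) and 3.05 ± 0.25 at 25 weeks (adjusted p = 0.000172). The effect at 25 weeks was smaller by 1.40 on the log2 scale, which did not pass (adjusted p = 0.185). Igf2 has further starts in states L and M, and it overlaps Gm49394 and the antisense gene Igf2os, also called higher. Since it is not stated whether strand was used in counting, their reads cannot be told apart.

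Several other genes had groups apart at 8 weeks without passing. The share of all tested genes with groups apart at that age is not given here, and so few libraries can stand apart without an effect. Asphd2, an aspartate hydroxylase domain protein, had 6.86, 4.78 and 4.68 CPM in βEedKO against 0.864, 0.772 and 0.596 CPM in wild type (2.86 ± 0.68, adjusted p = 0.141). Ndn, which encodes necdin, an imprinted protein of neurons, had 67.2, 60.6 and 75.7 against 36.1, 41.2 and 36.6 CPM (0.84 ± 0.23, adjusted p = 0.246). Both were called at 25 weeks, Ndn with 84.7 and 81.7 against 37.8, 21.5 and 21.8 CPM (1.63 ± 0.26, adjusted p = 0.00452) and Asphd2 with 10.6 and 9.47 against 2.86, 0.305 and 0.466 CPM (3.24 ± 0.75, adjusted p = 0.0296, with the block 0.0838). These genes were named after their values were seen.

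The effect of βEedKO differed between the ages for 1 state N gene, Dpp6, where 0.198% of all genes passed this test. Dpp6 encodes an auxiliary subunit of Kv4 potassium channels. At 25 weeks it had 115 and 154 CPM in βEedKO and 18.5, 22.6 and 21.0 CPM in wild type, a log2 fold change of 2.70 ± 0.23. At 8 weeks it had 38.7, 32.7 and 32.2 against 25.1, 20.7 and 31.2 CPM, or 0.43 ± 0.21 (adjusted p = 0.669). The difference between the ages was 2.27 ± 0.31 (adjusted p = 0.0194 in edgeR, with the block 0.123), and it no longer passed without either βEedKO library of 25 weeks (0.0531 and 0.116). Dpp6 (ENSMUSG00000061576.15) spans chr5:26817203-27727505 and also has starts in L and M.

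In heterozygous islets 0 state N genes were called at either age by edgeR, as were 0% of all 18828 genes tested. At an unadjusted p under 0.05 there were 83 at 8 weeks and 6 at 25 weeks, and DESeq2 called 8 and 0. Over all genes with a start state 2477 and 151 had such an unadjusted p. DESeq2 called 115 higher and 285 lower over all genes at 8 weeks, and 1 and 1 at 25 weeks. Heterozygous replicate 2 at 8 weeks is the library with high fat and muscle genes described above.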

How the data were processed

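Bulk RNA-seq of 16 libraries in 6 groups and 1 chromatin segmentation of wild-type islets were used. The authors mapped reads to GRCm38 by TopHat2 2.0.13, counted them over Gencode M9 genes by featureCounts of Subread 1.5.0-p1 (strand use not stated) and deposited the raw counts, with 0 count columns left unused. Per the file headers and the study's methods, the segmentation holds state letters that EpicSeg assigned in bins of 200 bp. It was partly based on data from other sources, with replicates averaged.

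A start site is the outermost start of a gene's transcripts in a later Gencode release on GRCm38, and 47224 of 47937 counted genes matched by identifier. The tests were run with edgeR 4.0.16 under R 4.3.3 (TMM, filterByExpr by group, quasi-likelihood test, Benjamini-Hochberg adjustment over all genes tested). Genes with an adjusted p under 0.05 were called. Wild-type and βEedKO libraries were fitted together as 4 groups, and heterozygous libraries in a fit of all 6. CPM values are counts over the TMM-scaled library size, and ± after a log2 fold change is its standard error. The common biological coefficient of variation was 0.456. DESeq2 1.42.0, other scalings, no filter, a block, pooled controls, other start site rules and leaving out libraries were alternatives. DESeq2 was fitted without the filter on low counts, so its numbers mix a change of test with a change in the genes fitted. Scripts were tested on simulated counts. Intervals and floors of 3 reads cover counting error only.

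Named genes are, at each age, the largest rises and falls among called genes with at least 1 CPM and groups apart, genes that differ between ages, those in the longest domains, the genes highest in wild type and the genes of lowest p in each family. Others are said to be named after their values were seen, and 1 gene that the rule names is left out. The members, families and lists were chosen with earlier results of these data known.

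Over genes, the deviations of same-numbered wild-type and βEedKO libraries from their group's mean correlated at 0.457 and 0.163 at 8 weeks. At 25 weeks the values were 0.176 and 0.255. The block treats the numbers as pairs. Libraries of different numbers gave -0.528 to 0.450, so these values do not settle whether the numbers mark pairs. The labels do not say what a number marks. βEedKO replicate 5 and wild-type replicate 3 (8 weeks) and wild-type replicate 4 (25 weeks) had no partner. Whether replicates are separate animals is given only in part, so p-values measure the spread between these libraries. Chi-square per degree of freedom between libraries of a group was 31.03 to 591.6, so none was counted as a repeat.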

Additional observations from a re-analysis of the deposited data

Results flagged for a closer look

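The effect of βEedKO on Dpp6 differed between the ages by 2.27 ± 0.31 on the log2 scale (25 weeks minus 8 weeks, edgeR adjusted p = 0.0194), by a test of the difference itself. In the fit of all 11 wild-type and βEedKO libraries, with TMM scaling and the filter on low counts, no other state N gene passed that test. The difference was positive under each alternative fitted, from 2.02 without βEedKO replicate 3 at 25 weeks to 2.48 without βEedKO replicate 2, and the adjusted p ranged from 1.81e-07 with DESeq2 to 0.293 with library size alone as scaling.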

How the results depend on the processing

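Over all genes tested, 856 were called higher at 25 weeks, 1338 with DESeq2 and 591 with the replicate block. That number was 1662 with the block and library size alone, 1828 with wild type and heterozygous pooled and 1614 without both replicates 1. The number of state N genes called higher at 25 weeks, 36, was 56 with DESeq2, 19 with the replicate block, 94 with the block and library size alone, 74 with wild type and heterozygous libraries pooled, 60 for any transcript start in state N, 22 where the gene body was also N, 20 with no start outside N and 73 without both replicates 1 of 8 weeks. Leaving out 1 library at a time gave 12 to 49. The number lower, 0, was 1 with DESeq2, 1 with only the groups compared, 1 with the block, 1 with pooled controls, 2 with the block and library size alone, 2 without both replicates 1, 3 with no filter and 0 to 3 without 1 library. The median log2 fold change at 25 weeks, 1.39, was 0.79 with DESeq2, 1.63 with pooled controls, 1.60 with the body in N and 1.15 to 1.77 without 1 library.

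At 8 weeks the number higher, 1, was 17 with DESeq2, 3 with no filter, 0 with the block, 8 with the block and library size alone, 20 with pooled controls, 2 for any transcript start, 0 with no start outside N, 3 without both replicates 1 and 1 to 5 without 1 library. Over all genes tested, 80 were called higher at 8 weeks, 350 with DESeq2, 254 with the block and library size alone and 431 with pooled controls. The number of state N genes lower, 0, was 1 with the block and library size alone. The median, 0.53, was 0.21 with DESeq2, 0.75 with library size alone, 0.18 with no filter, 0.67 with the block and library size alone, 0.94 without both replicates 1 and 0.36 to 1.18 without 1 library. The number that differed between the ages, 1, was 10 with DESeq2, 0 with library size alone, 3 with no filter, 0 with the block, 16 with the block and library size alone, 0 with no start outside N and 0 to 2 without 1 library. In heterozygous islets at 8 weeks DESeq2 called 8, where over all genes it called 115 higher and 285 lower. The median width became 6000 bp when segments of states K to P were joined. The cause of these changes was not tested.

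Of the 36 genes, 20 lost the call with the block, 21 and 24 without βEedKO replicate 2 and 3, and 20 without each of wild-type replicates 3 and 4 of 25 weeks. Without βEedKO replicate 2 the log2 fold changes of Prss2 (-3.69), Cpa1 (-3.54), Pnliprp1 (-3.20), Dmbt1 (-2.43) and Gp2 (-3.16) turned negative, as did Bmp5 without βEedKO replicate 3 (-0.87) or wild-type replicate 3 (-0.20). Leaving out other single libraries gave up to 1.75, 1.54, 2.14, 1.89, 2.12 and 0.89 for these 6 genes in that order, and none of them was called. The block moved the call of no other named gene than those given beside their results. With library size alone the median of all genes rose from 0.03 to 0.27 at 25 weeks and from 0.00 to 0.20 at 8 weeks, to which changes on that scale are relative. The exclusion of both replicates 1 and the limit to genes with no start outside N were chosen after seeing the data. That exclusion left, at 8 weeks, only the wild-type and βEedKO libraries high in interferon-induced genes. With 2 βEedKO libraries at 25 weeks and 4645393 reads in the smallest wild-type library, levels of a few reads rest on counting error.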
